A study of Mus musculus with 4 samples.

Results

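The 9 genes Kit, Flt3, Tek, Cd34, Prom1, Procr, Eng, Esam and Cd9 encode proteins carried on the surface of hematopoietic stem cells and multipotent progenitors. Their transcripts were read on 4 Affymetrix arrays, each of RNA from mouse bone marrow. Every probe set whose only gene symbol was one of these names was taken, which gave 9 probe sets, 1 for each gene, among 28939 probe sets tested and 19938 named genes. The sorted population was Lin- c-Kit+ Sca-1+, known as KLS, in which stem cells and early progenitors are found. There were 2 arrays of Klf7-/- cells and 2 of Klf7+/+ cells. Both genotypes were on the C57Bl/6 strain, and the marrow of each came from chimeras that had been built from fetal liver. Klf7 encodes a Kruppel-like zinc finger transcription factor. Age, the number of mice or embryos behind an array, whether 1 host gave cells of both genotypes, and which part of Klf7 was deleted are not given in the sources used here. The p-values thus rest on the spread between arrays, in part borrowed from all probe sets, and that spread may be technical.

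KLS cells are a mixture, and these surface proteins are used to divide it. KIT, the receptor for stem cell factor, is carried by all cells of the gate and is one of the antigens on which the cells were sorted. Long-term stem cells of adult mice are known for little CD34 and FLT3 and for much EPCR (the product of Procr), ESAM and TIE2 (the product of Tek). Multipotent progenitors gain CD34, and those leaning to the lymphoid lineages gain FLT3. The arrays measured transcripts and not surface protein. In bulk RNA of a sorted population, fewer cells of a type and less RNA per cell cannot be told apart.

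No marker gene differed between the genotypes past the threshold, a limma p-value below 0.05 after Benjamini-Hochberg adjustment over all probe sets. The count was 0 of 9, where 0.00346% of all probe sets passed, and 1 of the 9 (Cd34) had an unadjusted limma p under 0.05, where 5.01% of all probe sets did. The transcripts of Kit, Cd34, Flt3 and Eng were higher in both knockout arrays than in either wild-type array. Esam was lower in both, and Procr, Tek, Prom1 and Cd9 overlapped between the groups. Absence of overlap is common with 2 arrays a group: 33.2% of all named genes had it, 14.5% as higher in knockout and 18.6% as lower. For the 9 genes the counts were 4 higher and 1 lower.

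The arrays were alike in scale, with median intensities of 50.5 to 51.8, and their log2 values correlated across probe sets at Pearson's r of 0.961 to 0.969, where probe sets are not independent replicates. The Klf7 probe set read 6.59 and 6.18 on the log2 scale in the arrays labelled knockout and 5.95 and 6.10 in those labelled wild type. It could lie outside the deleted part, so it does not check the labels. Transcripts tied to sex divided the arrays in the same way as the labels. Xist, the RNA of X inactivation, read 11.76 and 11.58 in the knockout arrays against 5.24 and 4.80 in wild type, and was the only probe set past the threshold, a call that was lost (0 probe sets passed) with any 1 array left out and, with all 4 arrays, under another quantile normalization, an offset of 32, an intensity trend with or without robust estimation, the replicate block and the leading probe sets kept. The Y-linked genes Eif2s3y, Kdm5d and Uty were lower in both knockout arrays. Sex and genotype cannot be told apart in any value below, although none of the 9 marker genes is assigned to the X or Y chromosome. Markers of cells outside the gate were not uniformly dim: 2 of 6 mature B and T cell genes and 6 of 8 granulocyte and monocyte genes were above the median named gene, which stood at 5.77. Among the latter, named after their values were seen, S100a9 read 8.02 to 10.40 on the log2 scale and Ly6g 4.36 to 4.64. Sca-1 itself (Ly6a) was not analysed here.

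**Figure D1:**
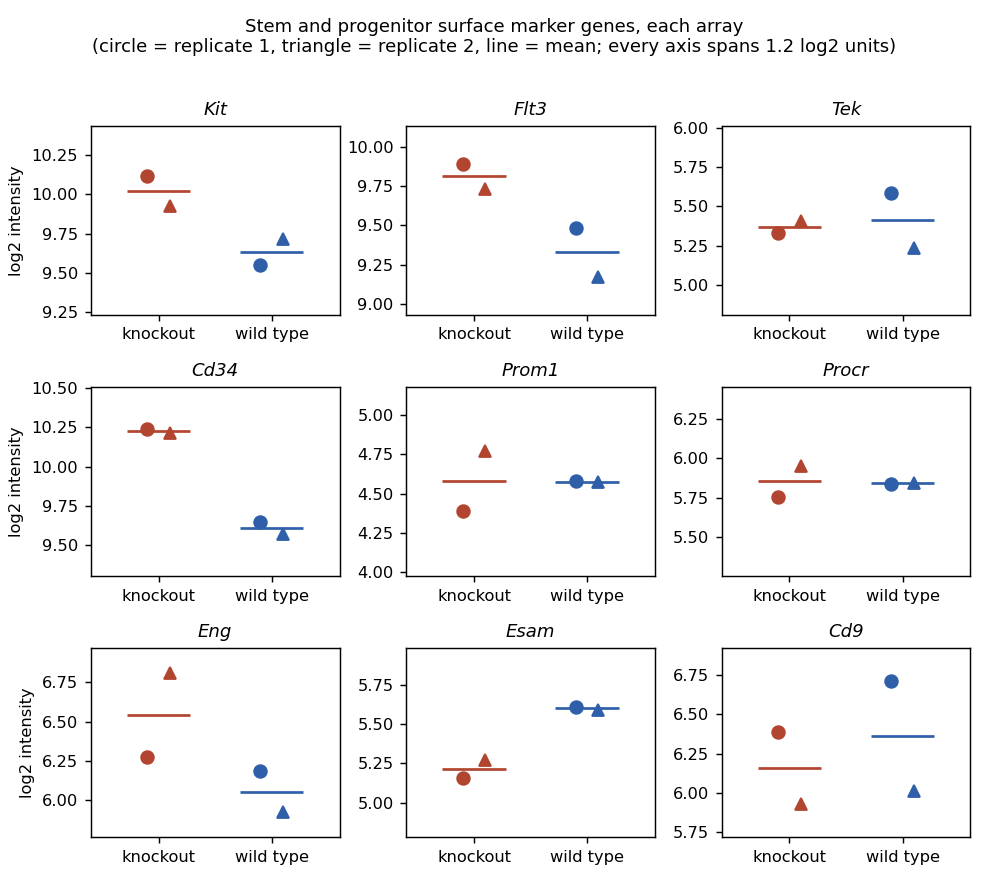
Log2 intensity of the 9 surface marker genes (vertical axis) in the knockout (red) and wild-type (blue) arrays, with circles for replicate 1, triangles for replicate 2 and a line at each group's mean. Every panel spans the same log2 width, and the groups stand apart for Kit, Flt3, Cd34, Eng and Esam, by least for Eng, at 0.093 between its nearest arrays.

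Kit and Flt3 encode related receptor tyrosine kinases, for stem cell factor and FLT3 ligand, and drive survival and division of progenitors. Kit read intensities of 1113 and 972 in the knockout arrays against 750 and 840 in wild type. Both knockout values were above both wild-type values, with a gap of 0.21 between the nearest arrays on the log2 scale. The geometric mean was 1.31-fold higher in knockout, a log2 difference of 0.39 ± 0.17 (SE, n = 2 per group; 95% confidence interval -0.064 to 0.84; limma adjusted p = 0.945). That difference exceeded the 0.20 between the knockout arrays and the 0.16 between the wild-type arrays. The cells had been selected for KIT protein in both genotypes.

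Flt3 read 950 and 851 in the knockout arrays against 717 and 577 in wild type. The groups again did not overlap, and the lower wild-type array stood 0.31 below the other on the log2 scale. The mean was 1.40-fold higher in knockout, a log2 difference of 0.48 ± 0.19 (SE, n = 2 per group; 95% confidence interval -0.015 to 0.98; limma adjusted p = 0.945). Without wild-type replicate 2, the lower of them, it was 0.33.

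Tek encodes TIE2, the receptor tyrosine kinase for angiopoietins, which is shared by stem cells and vessel lining. Its intensities were 40.2 and 42.4 in the knockout arrays against 48.0 and 37.7 in wild type. The knockout arrays lay between the wild-type ones. In log2 terms it differed by -0.042 ± 0.19 (SE, n = 2 per group; limma adjusted p = 0.997), and its 95% confidence interval of -0.54 to 0.46 allows a fold of 0.686 to 1.38. Tek was dim, below the median level of all named genes, as were Esam and Prom1.

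Cd34 encodes a sialomucin of progenitors and endothelium that binds selectins, and it had the largest difference of the 9. Its intensities were 1209 and 1191 in the knockout arrays against 802 and 762 in wild type. Arrays of a genotype lay close together, 0.022 apart on the log2 scale in knockout and 0.073 in wild type, while 0.57 separated the nearest arrays of different genotype. The mean was 1.54-fold higher in knockout, a log2 difference of 0.62 ± 0.15 (SE, n = 2 per group; 95% confidence interval 0.22 to 1.02; limma adjusted p = 0.945). Its unadjusted limma p of 0.0115 was the 279th smallest of the 28939 probe sets, so a difference this clear was not rare over the whole array. Cd34 was the only one of the 9 whose 95% confidence interval excluded 0. With any 1 array left out, the difference lay between 0.58 and 0.66.

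Prom1 encodes prominin 1 (CD133), a membrane protein that marks human stem cells more than mouse ones. Its probe set was dim, brighter than 17.8% of named genes. Its intensities were 20.9 and 27.2 in the knockout arrays against 23.9 and 23.8 in wild type. The wild-type arrays lay between the knockout ones, and in log2 terms it differed by 0.0012 ± 0.20 (SE, n = 2 per group; 95% confidence interval -0.51 to 0.52).

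**Figure D2:**
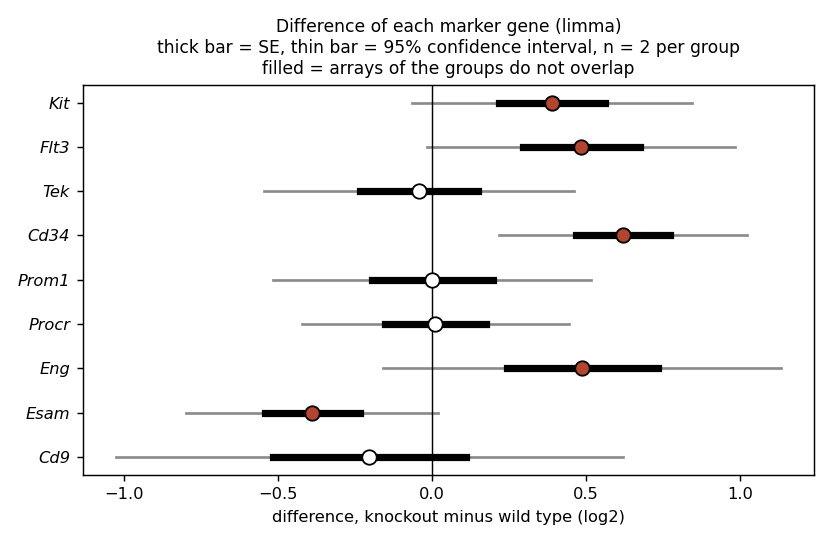
Log2 difference of each marker gene, knockout minus wild type (horizontal axis), with the limma standard error as a thick bar and the 95% confidence interval as a thin bar, from 2 arrays per group. Filled points mark the 5 genes whose groups do not overlap, and only the interval of Cd34, 0.22 to 1.02, excludes 0.

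Procr encodes EPCR, the receptor that binds protein C and activated protein C and retains stem cells in the marrow. Its probe set was near the median level, brighter than 53.0% of named genes. Its intensities were 54.0 and 62.0 in the knockout arrays against 57.2 and 57.6 in wild type. Both wild-type arrays lay between the knockout arrays. In log2 terms it differed by 0.011 ± 0.16 (SE, n = 2 per group; limma adjusted p = 1), and its 95% confidence interval allows a fold of 0.747 to 1.36.

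Eng encodes endoglin, a co-receptor for ligands of the TGF-beta and BMP families. Its intensities were 77.6 and 112 in the knockout arrays against 72.7 and 60.9 in wild type. The groups did not overlap, but only 0.093 on the log2 scale separated the nearest arrays, against 0.53 between the knockout arrays. The mean was 1.40-fold higher in knockout, a log2 difference of 0.49 ± 0.25 (SE, n = 2 per group; 95% confidence interval -0.16 to 1.13; limma adjusted p = 0.949). Single arrays set its size: it was 0.22 without knockout replicate 2 and 0.75 without knockout replicate 1.

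Esam encodes an adhesion molecule of endothelial junctions, platelets and stem cells, and it was the only one of the 9 whose arrays were both lower in knockout. Its intensities were 35.6 and 38.5 in the knockout arrays against 48.8 and 48.2 in wild type. The mean was 1.31-fold higher in wild type, a log2 difference of -0.39 ± 0.16 (SE, n = 2 per group; 95% confidence interval -0.80 to 0.021; limma adjusted p = 0.945). With any 1 array left out it lay between -0.44 and -0.33. It was -0.22 with an offset of 32 added to the intensities, which damps dim probe sets.

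Cd9 encodes a tetraspanin, a small membrane scaffold found on stem cells, megakaryocytes and platelets. Its intensities were 83.8 and 61.0 in the knockout arrays against 105 and 64.7 in wild type. Each genotype had 1 higher and 1 lower array, and these ranges overlapped. In log2 terms it differed by -0.20 ± 0.31 (SE, n = 2 per group; 95% confidence interval -1.03 to 0.62; limma adjusted p = 0.980), the widest interval of the 9. It was 0.14 without wild-type replicate 1, the highest array, and 0.025 without knockout replicate 2.

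**Figure D3:**
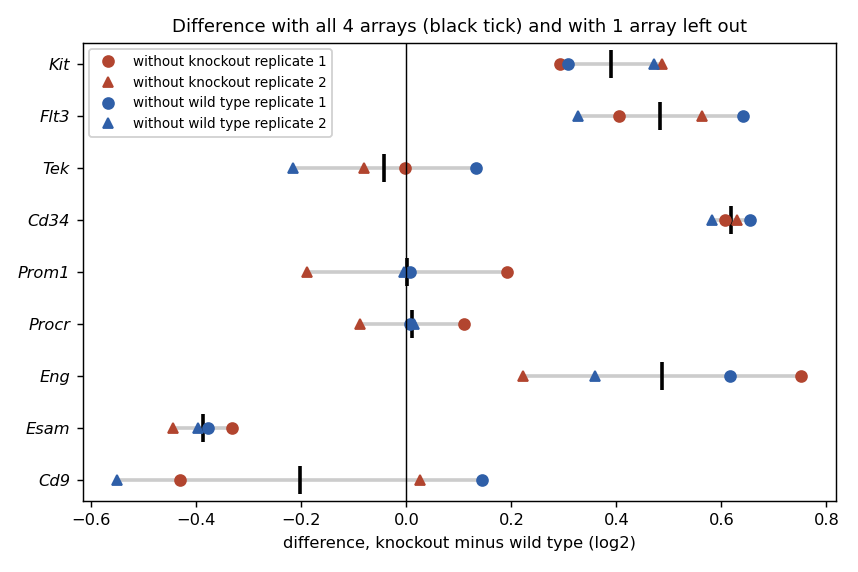
Log2 difference of each marker gene, knockout minus wild type (horizontal axis), with all 4 arrays (black tick) and with 1 array left out (symbols). Kit, Flt3, Cd34 and Eng stay above 0 and Esam below 0, while Tek, Prom1, Procr and Cd9 lie on both sides. A gene whose groups do not overlap must keep its sign when 1 array is left out, so only the sizes are informative there.

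Over the 9 genes, 6 had a higher mean in knockout and 3 a lower one, where 45% of all named genes were higher. The median log2 difference was 0.011, beside -0.026 over all named genes. The median of the 9 is the value of Procr and moved with single arrays, to 0.19 without knockout replicate 1 and to 0.14 without wild-type replicate 1. The count of genes without overlap was 5 of 9 with all arrays and 8 of 9 without knockout replicate 1, where 64.1% of all named genes had none. With probe sets above the median alone, which leaves 6 of the markers, their median difference was 0.44, beside 0.0055 over all genes left.

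Kit, Cd34 and Flt3 were far brighter than most named genes, each above at least 98.1% of them; brightness of a probe set does not rank transcripts of different genes. Of 373 other genes at least as bright as Flt3, the median difference was 0.0081, and 16.4% were higher without overlap and 13.1% lower. Of these 373, 4.83% were higher in knockout by at least as much as Kit, and 1.88% by at least as much as Cd34. Over all genes above the median gene level, the shares were 13.2% and 5.56%. Genes lower by as much were not counted. Cyclic loess, which removes trends with brightness, left log2 differences of 0.36 for Kit, 0.59 for Cd34 and 0.46 for Flt3.

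**Figure D4:**
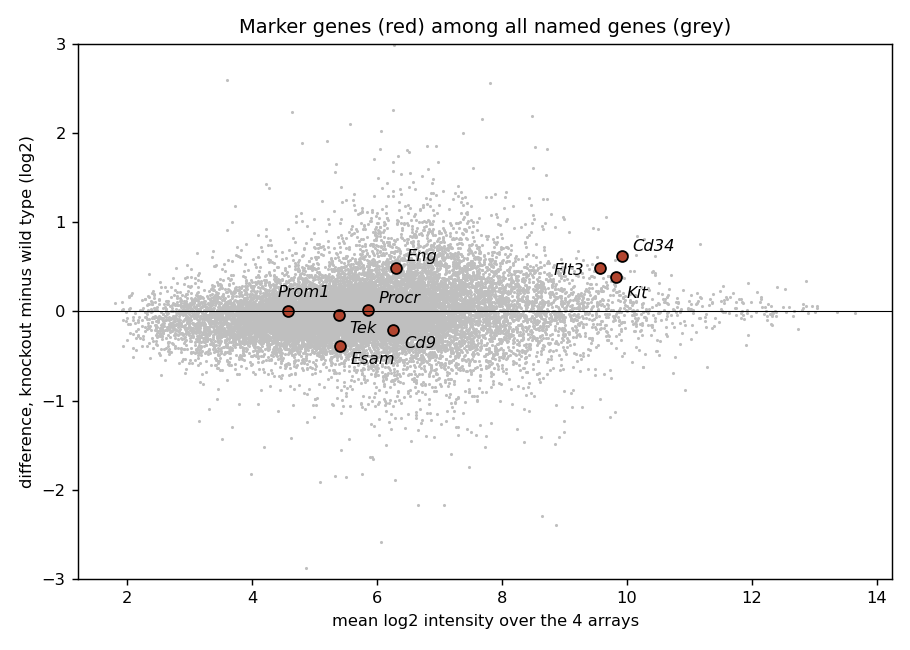
Log2 difference, knockout minus wild type (vertical axis), against the mean log2 intensity over the 4 arrays (horizontal axis) for the named genes in grey and the 9 surface marker genes in red; 4 genes beyond 3 log2 units are not shown. Kit, Cd34 and Flt3 lie together at the bright end above 0, and the other 6 lie within the main cloud. Of other genes at least as bright as Flt3, 4.83% are higher by at least as much as Kit.

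The promoters of the 4 genes that were higher in both knockout arrays are shown because KLF proteins bind CACCC boxes. Each is the 250 bases before the transcription start on the gene's strand, from RefSeq on GRCm38.p6, in the first listed window. Kit has 2 windows listed. Capitals mark CACCC, or GGGTG where the box is on the other strand. The positions are chr1:194938571-194938820 (plus strand) for Cd34, chr5:75574737-75574986 (plus strand) for Kit, chr5:147400490-147400739 (minus strand) for Flt3 and chr2:32646345-32646594 (plus strand) for Eng.
Cd34: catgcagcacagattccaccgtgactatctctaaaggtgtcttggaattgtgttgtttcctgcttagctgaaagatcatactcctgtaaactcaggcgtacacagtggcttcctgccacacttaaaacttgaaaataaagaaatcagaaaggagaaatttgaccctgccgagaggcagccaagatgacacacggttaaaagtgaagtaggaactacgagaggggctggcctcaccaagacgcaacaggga
Kit: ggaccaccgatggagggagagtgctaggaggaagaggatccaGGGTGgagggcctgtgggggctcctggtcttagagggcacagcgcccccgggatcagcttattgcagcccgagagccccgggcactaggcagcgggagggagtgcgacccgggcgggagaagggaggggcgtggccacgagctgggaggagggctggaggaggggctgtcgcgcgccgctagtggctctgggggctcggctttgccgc
Flt3: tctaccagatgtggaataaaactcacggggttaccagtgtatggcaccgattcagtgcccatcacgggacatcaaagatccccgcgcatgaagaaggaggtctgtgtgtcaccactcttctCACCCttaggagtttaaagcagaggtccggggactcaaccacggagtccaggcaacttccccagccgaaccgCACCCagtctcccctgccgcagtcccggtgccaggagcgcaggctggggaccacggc
Eng: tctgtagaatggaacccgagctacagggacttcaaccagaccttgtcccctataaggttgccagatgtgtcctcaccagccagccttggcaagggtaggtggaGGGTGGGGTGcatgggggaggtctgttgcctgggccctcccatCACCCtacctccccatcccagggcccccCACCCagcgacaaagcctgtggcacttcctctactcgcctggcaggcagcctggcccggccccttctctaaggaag
The Cd34 stretch held no CACCC on either strand. Kit held 1, starting 208 bases before the start. Flt3 held 2, at 129 and 57 bases, and Eng held 4. Of the 8 marker genes with a promoter in the table, 7 held CACCC on either strand, as did 51.3% of 27025 promoters of the same length. These shares were not matched for GC content, whose median was 52.0% over all promoters. Cd34 and Tek were below it, at 46.4% and 51.2%, and the other marker windows held 59.2% to 70.8%. The longer CACACCC, which contains CACCC, was in 0 of the 8 and in 6.85% of all promoters. The GC box CCGCCC was in 3 of the 8 (Prom1, Kit and Cd9) and in 32.9% of all. These matches are letters in a window and say nothing of binding.

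Genes that work with KIT and FLT3 lay on both sides of 0. Of 20 measured ligands, adaptors, kinases and inhibitors of the 2 receptors, 0 passed the threshold in limma, with 0 at an unadjusted p under 0.05. There were 9 with a higher mean in knockout and 11 with a lower one, 3 higher and 5 lower without overlap, and the median difference was -0.024. Socs2, an inhibitor of cytokine signalling, differed by -0.47 ± 0.27 (its other probe set by -1.86), and Fyn, a Src family kinase, by -0.43 ± 0.20 (SE, n = 2 per group). The ligand genes Kitl, mainly made by niche cells, and Flt3l differed by 0.11 and -0.041 (both named after their values were seen).

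The partners of TIE2 and endoglin divided evenly. Of 20 measured, 0 passed in limma, 2 had an unadjusted p under 0.05, 10 were higher and 10 lower in knockout, 4 higher and 3 lower without overlap, and their median difference was 0.012. Bmpr2, a receptor gene for BMPs, differed by 0.55 ± 0.28 and the TGF-beta transducer gene Smad3 by -0.41 ± 0.33 (SE, n = 2 per group). Angpt1, the TIE2 ligand that stem cells themselves make, read 10.30 and 10.27 with knockout against 10.24 and 10.17 with wild type, a log2 difference of 0.082 (named after its value was seen). The 2 with an unadjusted p under 0.05 were Ptprb, a phosphatase that acts on TIE2, at -0.61, and the BMP receptor gene Acvr1, at 0.43; both were dim, and both were named after their values were seen.

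In the protein C pathway around EPCR, 6 genes were measured and 0 passed in limma, with 0 at an unadjusted p under 0.05. There was 1 with a higher mean in knockout and 5 with a lower one, 1 of them without overlap, and the median difference was -0.075. The thrombin receptor gene F2r differed by -0.038 ± 0.18 and Thbd, which encodes thrombomodulin, by -0.058 ± 0.32 (SE, n = 2 per group).

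Of 16 measured relatives and partners of CD34, ESAM, prominin 1 and CD9, 0 passed in limma, with 2 at an unadjusted p under 0.05. There were 6 higher and 10 lower in knockout, 1 higher and 4 lower without overlap, with a median of -0.087. The leukocyte tetraspanin gene Cd37 read 7.97 and 7.86 with knockout against 7.47 and 7.43 with wild type, a log2 difference of 0.47 ± 0.16. Its relative Cd53 differed the other way, by -0.33 ± 0.17 (SE, n = 2 per group).

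Other surface antigens used to divide KLS cells were mixed. Of 10 measured, 0 passed in limma, with 0 at an unadjusted p under 0.05. There were 7 higher and 3 lower in knockout, 3 higher and 2 lower without overlap, and a median of 0.074. Cd48, a SLAM family ligand gained by multipotent progenitors, read 8.56 and 8.95 with knockout against 8.08 and 8.43 with wild type, a log2 difference of 0.50 ± 0.23. Thy1, the gene of a surface protein carried at a low level by mouse stem cells, differed by -0.48 ± 0.19 (SE, n = 2 per group).

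**Figure D5:**
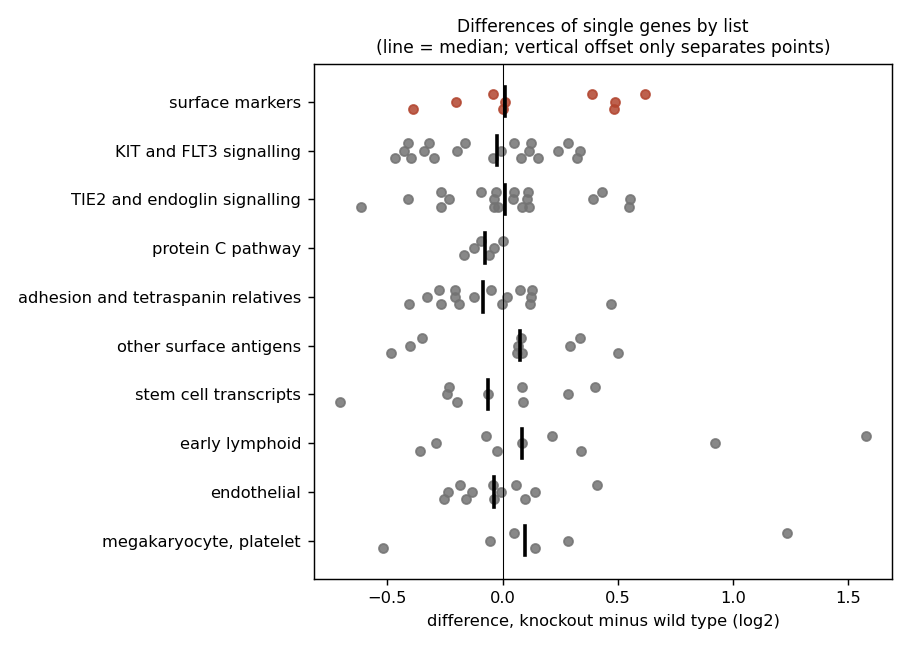
Log2 difference of single genes, knockout minus wild type (horizontal axis), for the 9 surface markers (red) and for the measured genes of 9 other lists (grey), with a line at each list's median. The medians lie between -0.087 and 0.097, and the points of each list fall on both sides of 0, although the highest of the protein C pathway is only 0.00048.

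Several markers are also made by cells that the gate should not hold, so their other genes were read beside them. Tek, Esam, Eng, Procr and Cd34 are expressed by endothelium. Of 12 endothelial markers, 4 were higher and 8 lower in knockout with a median of -0.039, and 0 passed in limma, with 0 at an unadjusted p under 0.05. Their summed intensity was 868 and 914 in the knockout arrays, on either side of the 904 and 898 of the wild-type arrays. Cdh5 and Kdr, which define endothelium and were named after their values were seen, were dim on all 4 arrays, at log2 values of 4.71 to 5.35. Not all were dim: 5 of the 12 were above the median named gene. Among these, also named after their values were seen, Egfl7 read 7.42 to 7.57 and Cldn5 5.81 to 6.22. Pecam1, which stem cells also make, differed by -0.16 ± 0.22, and Emcn, likewise found on stem cells, by -0.13 ± 0.38 (SE, n = 2 per group).

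Cd9 and Esam are made by megakaryocytes and platelets. The summed intensity of 6 such markers was 893 and 752 with knockout against 873 and 651 with wild type, higher in replicate 1 of each genotype, as Cd9 was. The sum is weighted to Pf4, at 457 and 366 with knockout against 448 and 251 with wild type. Gp5 and Ppbp had the same order. Itga2b and Gp9 were higher in replicate 2 of each genotype, and Treml1 in knockout replicate 2 (named after their values were seen). The part of these cells in the spread of Cd9 was not tested. Of the 6, 4 were higher and 2 lower, 0 passed in limma, with 1 at an unadjusted p under 0.05, namely the dim gene Ppbp at 1.24 (named after its value was seen). Pf4 differed by 0.28 ± 0.33 and Gp5 by -0.52 ± 0.33 (SE, n = 2 per group).

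Mast cells carry much KIT. The summed intensity of 8 mast cell and basophil markers was 352 and 368 in knockout, within the 403 and 321 of wild type, with 3 higher and 5 lower, 0 past the threshold in limma and 0 with an unadjusted p under 0.05. The protease genes Cpa3 and Mcpt8 differed by -0.0017 ± 0.33 and 0.40 ± 0.32 (SE, n = 2 per group).

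FLT3 is carried by early lymphoid progenitors and dendritic cells. The summed intensity of 9 early lymphoid genes was 2899 and 2351 in the knockout arrays against 2060 and 2000 in wild type, higher in knockout as Flt3 was. Without Vpreb1, which was high in knockout replicate 1 alone, the sums were 2514 and 2306 against 2012 and 1959. Of the 9, 5 were higher and 4 lower, 2 higher and 1 lower without overlap. In limma 0 passed, with 0 at an unadjusted p under 0.05. The median of the 9 was 0.084. The sums are set mostly by the brightest genes, Satb1, which overlapped between the groups, and Dntt. The 4 lower genes were Il7r at -0.29 (without overlap), Igll1 at -0.36, Rag1 at -0.072 and Ccr9 at -0.024. These and Satb1 were named after their values were seen. Ighm differed by 0.92 ± 0.43 and Vpreb1 by 1.58 ± 1.03 (SE, n = 2 per group), and the 3 probe sets of Ighm gave -0.56 to 0.92. Dntt, the template-free DNA polymerase gene of early lymphoid cells, read intensities of 874 and 1057 with knockout against 720 and 801 with wild type (named after its values were seen). The part of these cells in the Flt3 difference was not tested. Of 7 dendritic cell markers, 2 were higher and 5 lower, 0 passed in limma, with 0 at an unadjusted p under 0.05. The summed intensity of the 7 was 387 and 321 with knockout against 326 and 347 with wild type. Bst2, the only one above the median gene level and also an interferon-induced gene, differed by 0.38 ± 0.23 (SE, n = 2 per group).

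Eng had the widest range of the 9 over the 4 arrays, 0.88 on the log2 scale. By Euclidean distance between log2 values centred on each gene's mean over the 4 arrays, the genes most like it were Rtkn2 at 0.035, Tbc1d25 at 0.060 and Akt1 at 0.062. There were 92 other genes whose Pearson's r with Eng over the 4 arrays was above 0.99, so a close match over so few arrays is common.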

How the data were processed

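Groups and replicate numbers came from the sample titles. The authors deposited a single table that holds an intensity for every probe set on each array. Per the submitters' processing notes they used RMA and Affymetrix Expression Console, with versions, settings, annotation and genome build not given in the sources used here. RNA was amplified with the NuGen Ovation system, per the labels. Values up to 19067 showed a linear scale, so log2 was taken, with no further normalization. Detection calls were not used here, and the number of arrays limits the precision.

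The first 6615 of 35554 probe sets, which precede the first annotated one, were taken for controls and left out. The platform annotation of 2016 gave 1 symbol for 21789 probe sets, several for 1621 and none for the other 5529 tested. Entrez IDs of 21698 were found in RefSeq (GRCm38.p6), used for symbols and chromosomes. A gene with several probe sets was represented by the brightest.

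The genotypes were compared by limma 3.58.1 under R 4.3.3 (two-sided, 2 residual degrees of freedom). Its empirical Bayes step draws the variance of each probe set towards that of all probe sets. Every SE, interval and p-value thus rests on 4.63 degrees of freedom and not on the gene's own arrays alone. An exact permutation test of 2 against 2 arrays cannot go below 0.333. On 10 simulated comparisons of 28939 probe sets, limma called 0.149% of 2-fold, 31.2% of 4-fold and 86.5% of 16-fold changes, so a 2-fold difference could hardly be called with 2 arrays a group.

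The 9 genes and the 15 other lists were chosen with earlier results of these data known. Of each other list, the text names members past the threshold, or else up to 2 above the median gene level with the largest absolute difference. Klf7 and the sex-linked genes were meant as checks of the labels, but neither can check genotype. The Klf7 probe set could lie outside the deleted part, and the labels give no sex. Other genes are marked where named after their values were seen. Promoter windows of 8 of the 9 genes were matched by symbol, with the first listed window of each gene used. Kit and Prom1 had 2 windows listed, and the others were not read. Esam had no entry. Alternatives are given at the end.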

Additional observations from a re-analysis of the deposited data

How the results depend on the processing

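Settings were another quantile normalization, cyclic loess, an offset of 32, only probe sets above the median, an intensity trend with and without robust estimation, the mean of a gene's probe sets, replicate number as a block, the omission of each array in turn and, chosen after seeing the data, the leading probe sets kept. The count of markers past the threshold was 0 in all of them, and 0 to 0 on omitting an array, in which case the single array of a group borrows its variance from the pair. The count without overlap was 4 of the 6 markers left above the median, where 32.8% of all genes had no overlap, and 6 to 8 of 9 with an array left out, where 64.1% to 69.6% had none; the 6 came without wild-type replicate 1, where the share of all genes was 69.6%. The median difference was 0.44 above the median, which removes Tek, Esam and Prom1, and 0.015 to 0.19 with an array left out. Of 114 values of single markers, 6 reversed, all with an array left out: Procr ran from -0.088 to 0.11, Tek from -0.22 to 0.13, Prom1 from -0.19 to 0.19 and Cd9 from -0.55 to 0.14. With the replicate block 0 markers passed. The median was 0.011 as before, which was fixed in advance because each replicate number holds 1 array of each genotype. The samples share only a number: the deviations of the 2 pairs correlated at 0.043 over probe sets. Each marker has 1 probe set, so no second one checks its value, and averaging probe sets changed nothing in them. The dim end is limited by a floor not measured here.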

Other observations

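Transcripts enriched in stem cells other than surface markers lay on both sides. Of 9 measured, 4 were higher and 5 lower in knockout, 0 passed in limma, with 1 at an unadjusted p under 0.05, with a median of -0.065. Mecom, a stem cell transcription factor gene, read 6.25 and 6.13 with knockout against 7.20 and 6.59 with wild type, a difference of -0.71 ± 0.25, although its other probe set gave 0.54. Hlf, another such factor gene, differed by 0.40 ± 0.22 (SE, n = 2 per group).

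Markers of maturing cells did not pass either. Of 8 granulocyte and monocyte markers, 3 were higher and 5 lower, 0 passed in limma, with 1 at an unadjusted p under 0.05, namely Elane at -1.07 (just below the median gene level and named after its value was seen). Their summed intensity was 4043 and 2042 in knockout, on either side of the 3092 and 2871 of wild type. Lyz2 differed by -0.53 ± 0.37 and Camp by 0.52 ± 0.60 (SE, n = 2 per group). Of 4 erythroid markers, 2 were higher and 2 lower, 0 passed in limma, with 0 at an unadjusted p under 0.05, with Car1 at 0.86 ± 0.65 and Slc4a1 at 0.28 ± 0.16. Of 6 markers of mature B and T cells, 1 was higher and 5 lower, 0 passed in limma, with 0 at an unadjusted p under 0.05, with Cd79b at -0.18 ± 0.25 and Cd3e at -0.10 ± 0.15. Of 4 sex-linked genes measured, Xist was higher and the other 3 lower, all without overlap.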
